A study of Rattus norvegicus with 12 samples.

Results

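The heart tissue comparison sets miRNAs in a group headed M against a group headed CK, and takes in every row of the deposited heart table, which is 574 of the 941 rows in both tables of the series. Folds were read for the 350 miRNAs with a mean over all heart libraries of 10 or more normalized reads, M over CK. The series holds small RNA libraries of SD rats, 6 of heart and 6 of serum, and every heart sample carries the same genotype label. The design text states a left coronary ligation lasting 30 min, then perfusion for 1 week, before heart tissue was collected. No label states what M or CK stands for, which heart samples belong to either, or whether the samples came from separate animals, so no treatment is assigned to either name here, and each p-value sets a difference against a spread between libraries that may be no more than technical. The heart table rests on 3 libraries in M and 3 in CK.

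MicroRNAs are short RNAs that guide Argonaute proteins to messenger RNAs, which are then repressed. A hairpin precursor is cut into a 5p arm and a 3p arm, of which usually the more stable is loaded while the other is degraded. Pairing rests mainly on the seed, bases 2 to 8 of the mature miRNA, so miRNAs with an equal seed form a family with overlapping targets, and hairpins that lie close together are often cut from a shared transcript. In heart tissue the miR-1 and miR-133 miRNAs and the miR-208 and miR-499 miRNAs of myosin genes mark cardiomyocytes, while miR-21 and miR-199a are abundant in fibroblasts and miR-126a in endothelium.

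Of the 574 heart miRNAs, 519 matched a mature sequence of RefSeq (GRCr8 table). The sequences below run 5′ to 3′ with the seed in capitals. The first set holds the 4 miRNAs past the authors' adjusted threshold, with miR-146a-5p, which shares the seed of miR-146b-5p.
miR-146b-5p: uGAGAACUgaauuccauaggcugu
miR-146a-5p: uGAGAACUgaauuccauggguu
miR-221-5p: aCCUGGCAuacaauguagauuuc
miR-483-3p: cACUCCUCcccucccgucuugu
miR-6321: uACUGCAGugaguucuaugaagc
The next set holds 3 miRNAs with large folds that missed the adjusted threshold.
miR-21-5p: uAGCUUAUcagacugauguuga
miR-31a-5p: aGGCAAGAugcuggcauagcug
miR-184: uGGACGGAgaacugauaagggu
The third set shows the seed families with the highest and the lowest summed fold, miR-148/152 and 4 of the 3p arms of let-7.
miR-148a-3p: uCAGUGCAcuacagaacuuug
miR-152-3p: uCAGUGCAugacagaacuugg
miR-148b-3p: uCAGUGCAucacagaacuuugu
let-7b-3p: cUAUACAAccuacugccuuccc
let-7a-1-3p: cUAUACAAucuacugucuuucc
let-7c-2-3p: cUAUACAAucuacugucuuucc
let-7f-1-3p: cUAUACAAucuauugccuucc
The last set holds muscle miRNAs. The miR-1 pair and the miR-133 pair are so alike that the counting may have shared their reads, and miR-206-3p is shown for its seed, equal to that of the miR-1 pair.
miR-1b: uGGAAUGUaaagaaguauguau
miR-1-3p: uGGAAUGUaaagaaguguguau
miR-206-3p: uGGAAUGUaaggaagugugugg
miR-133a-3p: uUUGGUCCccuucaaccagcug
miR-133b-3p: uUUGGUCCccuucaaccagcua
Over 22 bases miR-133a-3p and miR-133b-3p differ at 1 position, as do miR-1b and miR-1-3p, and miR-146b-5p and miR-146a-5p at 2. The sequences of let-7a-1-3p and let-7c-2-3p are identical, and so were their reads in 5 of 6 libraries, with 1 read apart in the other (524 and 523 reads in CK library 2). The same reads were therefore counted for both rows, and the sources used here do not give how reads shared by near-identical miRNAs were assigned.

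The deposited means are sums of whole reads times a fixed step per library, which let the reads of each library be recovered for most miRNAs; the libraries are numbered here by depth within their group and stay unmatched to the sample labels. Estimated depth was 2237000, 4890000 and 5454000 reads in the M libraries and 4069000, 5848000 and 6641000 in the CK libraries. Recovered reads hold 18.9% of the normalized total in M and 12.7% in CK. The other miRNAs entered the estimates by their group means, as if equal in each library of a group after scaling. Reads were recovered in both groups for 320 of the 350 miRNAs, all but the most abundant. M library 2 stood apart: over these 320 miRNAs its median distance from the mean of the other M libraries was 0.59 on the log2 scale, with 93 miRNAs over 2-fold away, against 0.31 and 0.41 for the other M libraries and 0.25 to 0.35 for the CK libraries. Several of the values it moves most are also given without it. The heart label fits its markers, as miR-1-3p ranked 6 in M and 8 in CK and miR-499-5p ranked 39 and 35, whereas the summed liver markers took 0.0376% of all normalized reads in M and 0.0333% in CK and the epithelial ones 0.00603% and 0.00837%.

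Few miRNAs passed the test, and those that did moved strongly. By the adjusted p of the authors' deposited table, 4 of 574 miRNAs (0.697%) passed the threshold of 0.05. miR-146b-5p and miR-221-5p rose in M (0.348%), and miR-483-3p and miR-6321 fell (0.348%). miR-146b-5p, an inhibitor of Toll-like receptor and NF-kB signalling, had 9886, 12318 and 7304 normalized reads in the M libraries and 3531, 3279 and 2923 in the CK libraries. Every M library held more than any CK library. Its means were 9836 ± 2507 in M and 3244 ± 306 in CK (SD, n = 3 each), and its log2 fold of 1.60 had an adjusted p of 0.0220 in the authors' deposited table. The 3p arm of the same hairpin, far scarcer, stood at 35.8 in M and 20.7 in CK, again with no overlap between the libraries (log2 fold 0.79). By contrast miR-146a-5p, with an equal seed, averaged 12045 in M and 9556 in CK, and its libraries overlapped.

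miR-221-5p is the minor arm of a hairpin known from endothelium and smooth muscle, where its 3p arm represses the receptor Kit and a cell cycle inhibitor. It had 212, 293 and 189 normalized reads in the M libraries and 79.8, 78.9 and 72.9 in the CK libraries, so the CK values lay close together and far below each M value. The log2 fold was 1.58, with an adjusted p of 0.0483 in the authors' deposited table. The major arm, miR-221-3p, averaged 1610 in M and 684 in CK without overlap, a log2 fold of 1.24 with an adjusted p of 0.793 as given by the authors' deposited table. Leaving out M library 2 gave 0.61.

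miR-483-3p comes from a hairpin in an intron of Igf2, the gene of a fetal growth factor. It had 21.2, 4.89 and 28.2 normalized reads in the M libraries and 76.7, 63.7 and 90.9 in the CK libraries. No M library came near the lowest CK library, although M library 2 rests on 5 reads. Its log2 fold was -2.09 with an adjusted p of 0.0220 in the authors' deposited table. The partner arm, miR-483-5p, was also lower in each M library than in each CK library, with means of 16.2 in M and 41.8 in CK (log2 fold -1.37).

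miR-6321 had no read in any M library, against 36, 82 and 228 reads in the CK libraries. In normalized reads the CK values were 37.8, 59.3 and 147.0, a spread of nearly 4-fold within the group. Placing 3 reads in the shallowest M library, the floor used here, gives a level at least 38.3-fold lower in M, and the adjusted p was 0.0127 in the authors' deposited table.

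**Figure D1:**
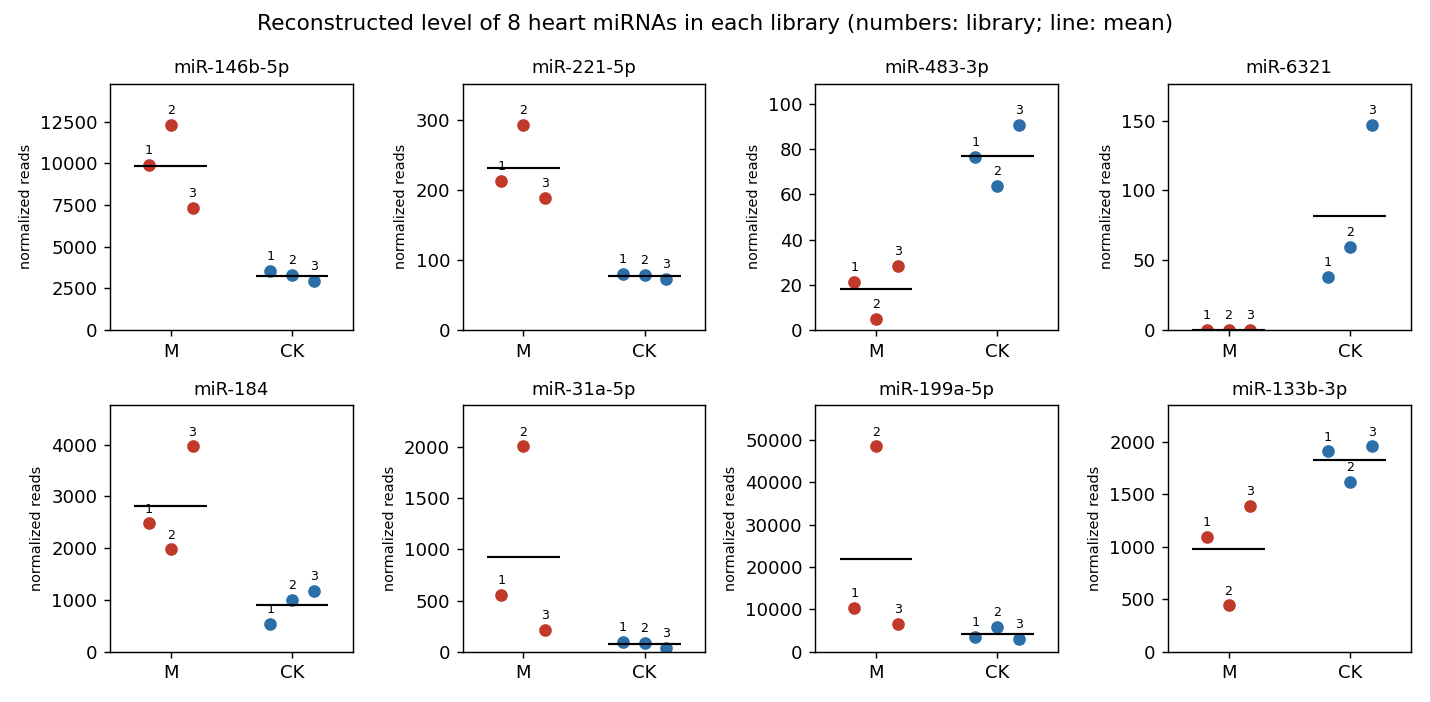
Normalized reads of 8 heart miRNAs in each M library (left) and each CK library (right), with library numbers above the points and lines at the group means; every axis starts at 0. The upper row holds the 4 miRNAs past the adjusted threshold, whose M and CK libraries do not overlap; in the lower row miR-31a-5p and miR-199a-5p draw much of their M mean from M library 2.

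A limma fit on the recovered reads, log2(level + 1), tested the 320 miRNAs again and called 3: miR-6321 with an adjusted p of 0.00144, miR-146b-5p with 0.0199 and a log2 difference of 1.57 (SE 0.23), and miR-221-5p with 0.0328. miR-483-3p did not pass there (adjusted p = 0.105). The call of miR-6321 was kept when each library in turn was left out. miR-146b-5p and miR-221-5p missed the threshold without M library 1 or without any of the 3 CK libraries, with adjusted p of 0.117 to 0.197 and of 0.130 to 0.211. Without M library 2 limma called 13 miRNAs, 8 higher and 5 lower in M. These held all 4 above, miR-184, miR-7a-5p, miR-31a-5p, miR-206-3p, miR-199a-5p and miR-122-5p, which were higher in M, and miR-760-3p, miR-323-3p and miR-6324, which were lower. miR-483-3p then had an adjusted p of 0.0126.

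Short of the adjusted threshold, higher and lower miRNAs were about equally many. The authors' deposited table gives 44 of 574 miRNAs (7.67%) an unadjusted p below 0.05, of which 24 were higher in M (4.18%) and 20 lower (3.48%). With a mean of 10 or more they were 42 of 350 (12%), 23 higher (6.57%) and 19 lower (5.43%). All M libraries lay on one side of all CK libraries for 94 of the 320 recovered miRNAs (29.4%), above them for 52 (16.2%) and below them for 42 (13.1%). Over the 350 miRNAs the median log2 fold was 0.0079, with 177 higher in M and 173 lower.

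The largest fold belonged to miR-31a-5p, a miRNA of mesenchymal and epithelial cells. It had 556, 2009 and 214 normalized reads in the M libraries and 96.6, 81.8 and 34.2 in the CK libraries, all M above all CK. Its log2 fold was 3.71 (unadjusted p = 0.0492 and adjusted p = 0.641 in the authors' deposited table), and 2.44 without M library 2. miR-21-5p, which is abundant in cardiac fibroblasts, averaged 322234 in M and 57800 in CK in the authors' deposited table. That log2 fold of 2.48 had an adjusted p of 0.151, and its reads per library could not be recovered.

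miR-184, known from the eye and other epithelia, had 2477, 1975 and 3966 normalized reads in the M libraries and 543, 996 and 1177 in the CK libraries. Its log2 fold was 1.63, all M above all CK, with an adjusted p of 0.186 in the authors' deposited table. miR-212-5p, whose hairpin lies beside that of miR-132 and is known from cardiac hypertrophy, averaged 79.0 ± 49.2 in M and 20.4 ± 5.1 in CK (SD, n = 3 each). miR-147, induced by Toll-like receptors in mouse macrophages, averaged 57.0 ± 13.6 in M and 18.9 ± 3.7 in CK, and the myeloid miR-223-5p 169 ± 67 in M and 59.0 ± 8.5 in CK (SD, n = 3 each). In all 3 the M libraries lay above the CK libraries, and none passed the adjustment.

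The largest negative folds, apart from the called pair, came from scarce miRNAs. miR-323-3p averaged 6.91 in M and 34.0 in CK, a log2 fold of -2.30. It was followed by miR-196c-5p of a Hox locus at -1.70, miR-338-3p at -1.68, miR-760-3p at -1.47, miR-29b-5p at -1.37 and miR-346 at -1.37. Means of these 6 ran from 6.19 to 21.2 normalized reads in M and from 16.7 to 54.9 in CK. Only miR-346 overlapped between the groups. The values of miR-196c-5p and miR-346 leaned on M library 1, without which their log2 folds were -3.43 and -2.34. That of miR-323-3p leaned on CK library 2 and was -1.60 without it.

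**Figure D2:**
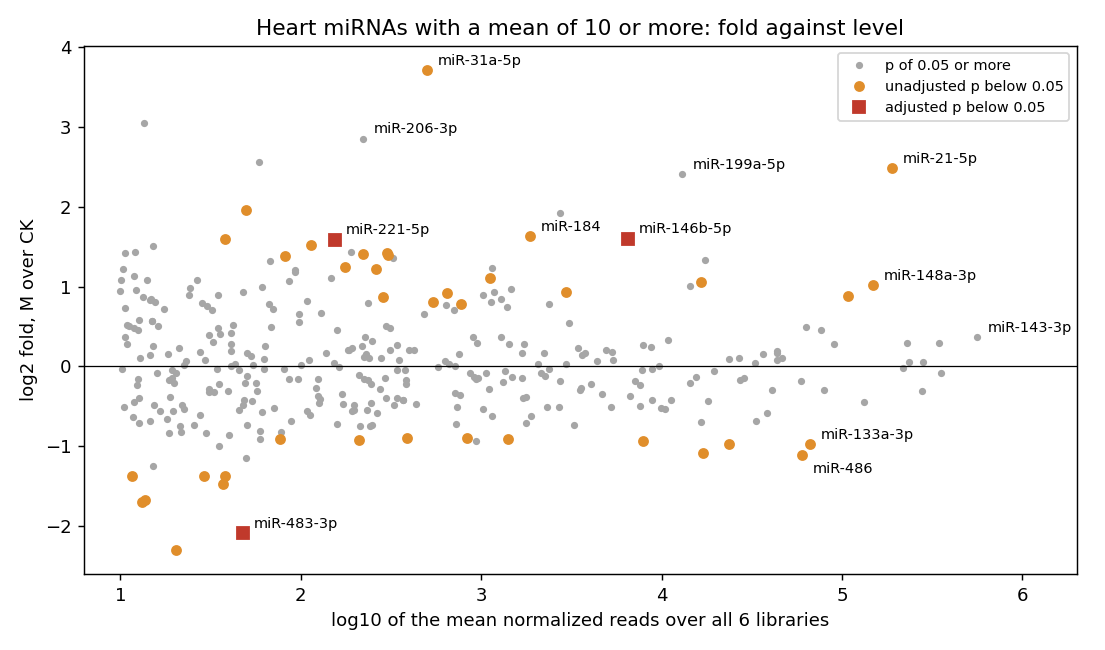
Log2 fold, M over CK, against the log10 mean level of each heart miRNA with a mean of 10 or more; colours mark the authors' unadjusted and adjusted p below 0.05. miR-6321, with no read in M, has no finite fold and is not drawn; of the miRNAs of high level, miR-21-5p stands farthest from 0.

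The abundant end of the profile was nearly shared. By the means in the authors' deposited table the first 10 miRNAs took 65.1% of all normalized reads in M and 62.1% in CK, and 9 of the 10 were the same. miR-143-3p of smooth muscle led both groups with 630699 in M and 488987 in CK. Others among the first 10 of both groups were miR-126a-3p of endothelium (378812 in M and 308114 in CK), the cardiomyocyte miRNA miR-1b (344531 in M and 365838 in CK) and miR-99a-5p (286585 in M and 275462 in CK). miR-1-3p had 251909 in M and 205731 in CK, and miR-30d-5p 246562 in M and 304948 in CK. miR-378a-3p, from an intron of Ppargc1b, had 238414 in M and 229711 in CK, and miR-26a-5p 216905 in M and 218945 in CK. None of these 8 had an unadjusted p below 0.05.

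The exception was miR-21-5p, which ranked 4 in M with 6.74% of all normalized reads, against rank 18 in CK with 1.36%. It was the miRNA among the first 10 of M that CK lacked, while miR-30c-5p was among the first 10 of CK and stood at rank 12 in M. miR-148a-3p held rank 10 in both groups with 197745 in M and 97883 in CK in the authors' deposited table, a log2 fold of 1.01 and an unadjusted p of 0.0271. Among the first 20 the groups shared 17, among the first 50 they shared 46, and among the first 100 they shared 91.

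On the log scale of rank, the largest climbs among the first 100 after miR-21-5p were those of miR-199a-5p (rank 35 in M and 65 in CK), miR-146b-5p (45 in M and 71 in CK), miR-214-3p (65 in M and 101 in CK) and miR-126a-3p (2 in M and 3 in CK). miR-199a-5p and miR-214-3p, which come from a shared mesenchymal transcript, leaned on M library 2: miR-199a-5p had 10266, 48514 and 6645 normalized reads in the M libraries and 3522, 5880 and 2938 in the CK libraries. Its log2 fold was 2.41 with all libraries and 1.04 without that one, and that of miR-214-3p was 1.92 and 0.78. The largest drops were those of miR-133a-3p (21 in M and 11 in CK), miR-486 of red cells and muscle (24 in M and 13 in CK), miR-30d-5p (7 in M and 4 in CK), miR-1b (3 in M and 2 in CK) and miR-150-5p of lymphocytes (61 in M and 44 in CK).

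Large folds were spread unevenly over the abundance ranks. Folds of 2 or more were 40 higher and 13 lower in M of 350. Among ranks 1 to 100 there were 9 higher and 2 lower, among ranks 101 to 200 there were 13 higher and 0 lower, and among ranks 201 to 350 there were 18 higher and 11 lower. At an unadjusted p below 0.05, the 100 miRNAs of ranks 101 to 200 held 12 higher and 3 lower, and the 150 of ranks 201 to 350 held 4 higher and 10 lower, beside 6.57% higher and 5.43% lower over all 350. The median absolute log2 fold was 0.27 in ranks 51 to 100 and 0.56 in ranks 201 to 350, where means are below 126 normalized reads. The balance of directions depends on scaling: with the groups scaled to equal sums every log2 fold shifts by -0.17, and the 2-fold counts become 30 higher and 26 lower in M. M library 2 also enters these means. Of 320 miRNAs it lay 2-fold or more above the mean of the other M libraries for 51 and below it for 42. The 2-fold counts were not taken without that library.

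Most seed families differed little between the groups. The 350 miRNAs included 319 with a seed, in 260 seeds, and 11 seeds had 3 or more members, 47 miRNAs in all. Summed over members, 5 families were higher in M and 6 lower, and 1 passed 1.5-fold. In 7 families all members leaned the same way, upward in 2 and downward in 5.

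The family past 1.5-fold was miR-148/152 (seed CAGUGCA), known to repress DNA methyltransferases. Its sum was 224545 in M and 112836 in CK by the authors' deposited table, a log2 fold of 0.99, and 87.6% of it was miR-148a-3p. miR-152-3p had 17335, 34084 and 15598 normalized reads in the M libraries and 10683, 10624 and 10785 in the CK libraries. The CK values nearly coincided and every M value lay above them, for a log2 fold of 1.06 and of 0.62 without M library 2. miR-148b-3p averaged 4460 in M and 4256 in CK, a log2 fold of 0.07. The members thus differed in their fold although they share the seed. The passenger strand miR-148a-5p averaged 1529 in M and 710 in CK without overlap (log2 fold 1.11), close to its partner miR-148a-3p.

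After it came the 5p arms of let-7 (seed GAGGUAG, 9 members), with a log2 summed fold of 0.42. Of these, 8 were higher in M, and let-7i-5p stood out with 139853 in M and 76061 in CK (unadjusted p = 0.0346 in the authors' deposited table), against log2 folds of -0.23 to 0.50 in the other members. The miR-15/16 family (AGCAGCA) followed with 0.20 (0.07 without CK library 2), all 5 members higher, and the miR-17/20/93 family (AAAGUGC), known for cell cycle targets, with 0.19. Their libraries overlapped between the groups.

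The lowest family held 4 of the 3p arms of let-7 (seed UAUACAA), which are passenger strands. Other let-7 3p arms lie outside it, among them the more abundant let-7d-3p with a log2 fold of -0.51. The most abundant member of the family was let-7b-3p, whose partner let-7b-5p stood at a log2 fold of 0.04. The hairpin of let-7i, whose 5p arm rose most, has no arm in this family. With members of identical sequence counted once, the sum was 977, 1009 and 962 normalized reads in the M libraries and 1432, 1491 and 1459 in the CK libraries. Values within each group were close, and no M library reached a CK library. The log2 fold was -0.57, and -0.54 with all 4 members summed, yet no member had an unadjusted p below 0.05; let-7b-3p came nearest with 580, 573 and 499 in the M libraries and 882, 986 and 858 in the CK libraries (unadjusted p = 0.0723 in the authors' deposited table).

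The miR-29 family (AGCACCA), which represses collagens, had a log2 summed fold of -0.42, with miR-29b-3p lowest among its members at -0.92 (145 ± 67 in M and 275 ± 69 in CK, SD, n = 3 each). The family without M library 2 stood at -0.23 and miR-29b-3p at -0.59. The miR-30 family (GUAAACA) stood at -0.41 and the miR-125/351 family (CCCUGAG) at -0.36, with all 3 members lower in each. Families hold only miRNAs with a RefSeq sequence, so the miR-30 sum lacks miR-30d-5p, more abundant than any of its 3 members, and miR-30b-5p. In the miR-1/206 family (GGAAUGU) the sum hid an uneven pattern. miR-206-3p, typical of skeletal muscle, had 282, 760 and 119 normalized reads in the M libraries and 41.0, 31.1 and 89.0 in the CK libraries, a log2 fold of 2.85 and of 1.90 without M library 2, while miR-1b and miR-1-3p stood at -0.09 and 0.29. miR-206-3p is a minor part of that family, whose sum had a log2 fold of 0.06, or -0.10 with the groups scaled to equal sums.

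**Figure D3:**
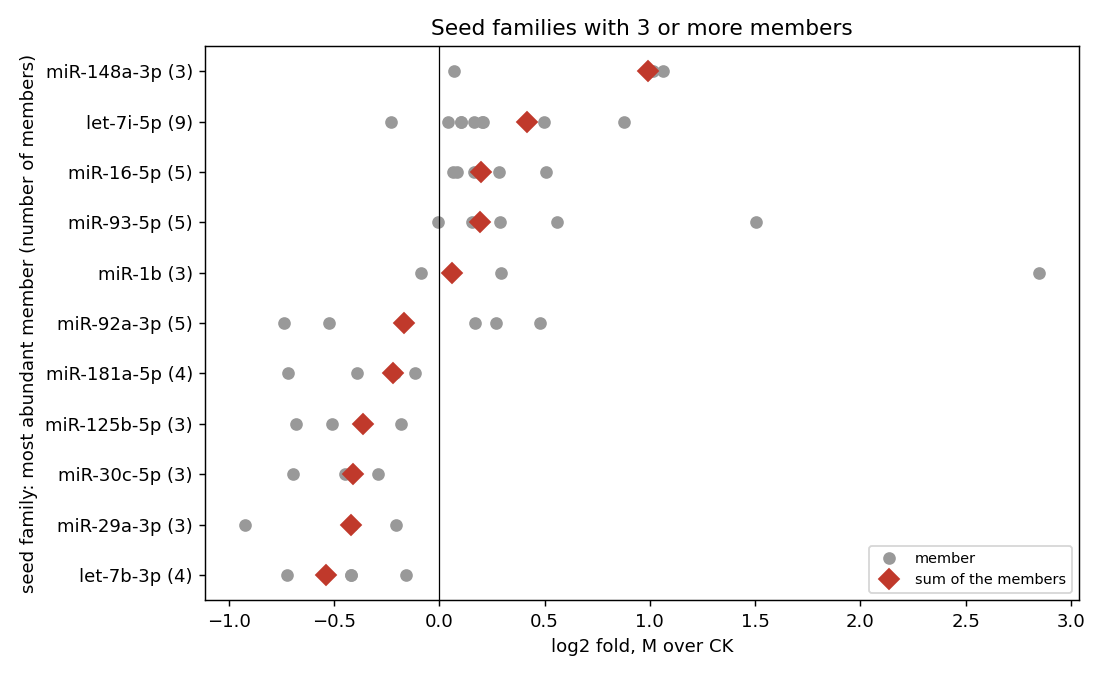
Log2 fold, M over CK, of the 11 seed families with 3 or more members of mean 10 or more; grey points are members, red diamonds the sum over the members, and the number of members stands in brackets. The miR-148 family lies farthest right at 0.99 and the let-7 3p family farthest left at -0.54.

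Both arms were at a mean of 10 or more for 93 hairpins. They shared the sign of their fold in 59 (29 both higher and 30 both lower in M) and differed in 34, and the log2 folds of the arms had a Pearson r of 0.70 and a Spearman rho of 0.54 across hairpins, which are not independent and share libraries and depth. Counting rows by arm, the 154 5p miRNAs were 88 higher and 66 lower in M, and the 164 3p miRNAs 74 higher and 90 lower. At an unadjusted p below 0.05 the 5p miRNAs were 18 higher and 7 lower, and the 3p miRNAs 3 higher and 9 lower, where all 350 miRNAs held 6.57% higher and 5.43% lower.

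Within a hairpin the ratio of the 5p to the 3p arm does not depend on the scaling between libraries. By the means it was nearer 5p in M for 59 of 93 hairpins, 32 of the 50 with a more abundant 5p arm and 27 of the 43 with a more abundant 3p arm. In the 78 hairpins with recovered reads it was nearer 5p in M for 53 (67.9%). The median log2 ratio, taken against the CK mean of each hairpin, was 0.29, 0.15 and 0.24 in the M libraries and 0.05, -0.01 and 0.05 in the CK libraries. By this median the 3 M libraries lay above the 3 CK libraries, M library 2 least, but each CK library is part of its own reference. That draws the CK values toward 0 and leaves the M values free, and their separation was not tested. Counting hairpins nearer 5p than their CK mean, the M libraries held 51, 48 and 54 of 78 and the CK libraries 50, 38 and 43, which overlap. Ratios of 16 hairpins lay above all CK libraries in all M libraries (20.5%) and of 3 below (3.85%). Without M library 2 these counts were 29 and 5. With fewer M libraries the same rule is easier to meet, so the counts could not fall. In limma 0 of 78 hairpins passed the adjusted threshold, and 19 had an unadjusted p below 0.05, of which 15 were nearer 5p in M. Base composition varied between libraries too. Over 293 miRNAs, GC content was correlated with the log2 level against the CK mean. The Spearman rho was -0.24, 0.11 and -0.24 in the M libraries and -0.20, 0.37 and -0.28 in the CK libraries. The CK values are tied to each other, because each CK library is part of that mean. The part of base composition in the arm ratios was not tested.

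The largest arm change ran the other way. In miR-296, of an imprinted locus in mouse, the log2 ratio of 5p to 3p was 0.34, 0.17 and 0.91 in the M libraries and 2.70, 2.19 and 1.93 in the CK libraries. No M library reached a CK library, and limma gave a change of -1.80 (SE 0.35) with an adjusted p of 0.0619. miR-296-5p averaged 31.0 in M and 68.6 in CK, and miR-296-3p 21.8 in M and 13.2 in CK, so the arms leaned in opposite directions. By the means the next changes were toward 5p: 1.504 in miR-324, 1.202 in let-7i, 1.11 in miR-338, 1.10 in miR-466c and 1.08 in miR-199a. The change of miR-324 was 0.90 without M library 1, and that of miR-199a was 0.44 without M library 2. Of these hairpins, miR-324 and miR-466c had M ratios above all CK ratios, and let-7i could not be recovered per library. The more abundant arm was another in M than in CK for 3 hairpins, miR-434, miR-485 and miR-708. Their log2 ratios of 5p to 3p were 0.76, 0.05 and 0.11 in M and -0.05, -0.81 and -0.11 in CK. In 51 of 93 hairpins the log2 ratio moved by less than 0.5.

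**Figure D4:**
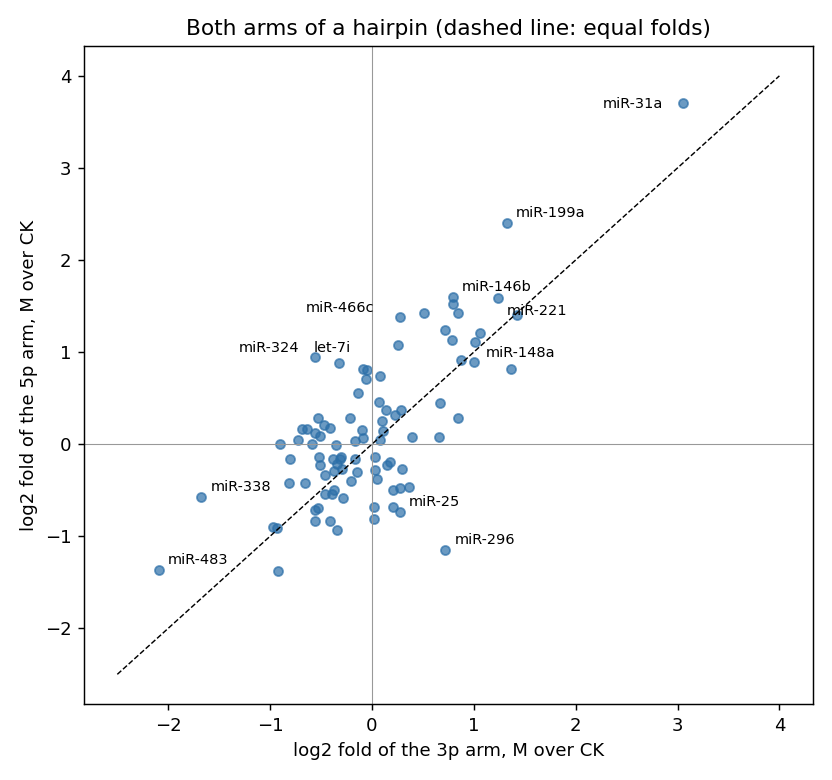
Log2 fold, M over CK, of the 5p arm against that of the 3p arm for 93 hairpins with both arms at a mean of 10 or more. Points above the dashed line have a ratio nearer 5p in M, as 59 do; miR-296 lies farthest below it and miR-324 farthest above.

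Hairpins that neighbour each other on a strand in the RefSeq table, with gaps of at most 10 kb, formed 16 groups with 4 or more members at a mean of 10 or more. Summed over members, 8 groups were higher in M and 8 lower, and 3 passed 1.5-fold upward and 1 downward. Some miRNAs lie in more than 1 group and are summed in each, so the groups are not all distinct. These were miR-92a-3p, miR-17-5p and miR-19b-3p among the lower groups and miR-24-3p among the higher. Highest was the group of miR-379, in the imprinted Dlk1-Dio3 region of mammals, whose 17 members summed to 1624 normalized reads in M and 781 in CK. Of the 17, 15 were higher in M and 8 lay above all CK libraries, as did 16.2% of the 320 recovered miRNAs. miR-379-5p led them at 436 in M and 163 in CK (log2 fold 1.42), and miR-323-3p went against them at -2.30. The median member, on the log2 scale against its CK mean, stood at 0.51, 1.40 and 0.39 in the M libraries and -0.44, 0.46 and -0.33 in the CK libraries, so CK library 2 lay between M libraries 3 and 1. Without M library 2 the median log2 fold of the group was 0.48.

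The neighbouring group of miR-127 and miR-434 had 7 members and was 1.70-fold higher in M; its median log2 fold was 0.78, and 0.17 without M library 2. The 4 miRNAs of the miR-532 and miR-501 group were 1.60-fold higher in M, and 1.48-fold without M library 2, where 2 of 4 members were higher. The summed fold of the miR-379 group was then 1.54 and that of the miR-127 group 1.13. With all libraries, lowest was the group of miR-29b and miR-29c, with 513 normalized reads in M and 777 in CK, a ratio of 0.66 with all 4 members lower. It was followed by the X-linked miR-547, miR-201 and miR-3585 group at 0.67 and the miR-296 and miR-298 group at 0.68. Leaving out M library 2, these ratios were 0.79, 0.88 and 0.60, so the miR-296 group came lowest of the 3. Neighbours did not always move alike. In the miR-17 to miR-92a group 4 of 7 members were higher in M while the sum was lower. That sum is mostly miR-92a-3p at a log2 fold of -0.53, whose reads also count in another group.

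Lists of miRNAs that mark cell types leaned in different directions, each count read against 6.57% of all 350 miRNAs higher and 5.43% lower at an unadjusted p below 0.05. The lists were chosen with earlier results of these data known, so their counts are a description and no test. In bulk tissue, fewer cells of a type and less miRNA per cell cannot be told apart. All 9 myeloid and inflammatory miRNAs were higher in M, 6 of them at that p and 7 above all CK libraries (16.2% of all recovered miRNAs), and their median log2 fold was 0.92. Besides miR-146b-5p, miR-147 and miR-223-5p these were miR-155-5p of activated immune cells, with 350, 493 and 258 normalized reads in the M libraries and 139, 135 and 201 in the CK libraries, and both arms of miR-142, a miRNA of blood cells. miR-142-5p averaged 842 ± 164 in M and 446 ± 55 in CK and miR-142-3p 368 in M and 201 in CK. The most abundant member was miR-146a-5p. Both arms of miR-146b, miR-223 and miR-142 are among the 9, so these miRNAs are not independent of each other. Without M library 2 the median of this list was 0.76.

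The fibroblast and mesenchymal list had 19 members, 13 higher in M and 6 lower, with a median of 1.33. It held arms of miR-21, miR-199a, miR-214, miR-31a, miR-132, miR-212, miR-34a, miR-34b, miR-34c and the miR-29 family. All 6 lower members were of miR-29. As miR-31a is also of epithelial cells and miR-212 is known from cardiac hypertrophy, the list does not mark fibroblasts alone. At an unadjusted p below 0.05 were miR-21-5p, its most abundant member, miR-31a-5p, miR-212-5p and miR-34c-5p (443 ± 231 in M and 168 ± 42 in CK, SD, n = 3 each), all higher, and both arms of miR-29b, which were lower. The log2 fold of miR-34c-5p was 1.40, and 0.88 without M library 2. The summed list took 8.07% of all normalized reads in M and 2.05% in CK, most of it miR-21-5p. As reads of miR-21-5p could not be recovered per library, how far that share rests on M library 2 is not known. Over the 18 members with recovered reads the median was 1.296, and 0.59 without M library 2.

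The muscle list ran the other way, with 7 of 9 members lower in M and a median of -0.90. At an unadjusted p below 0.05 were miR-133a-3p, which averaged 44805 in M and 87890 in CK in the authors' deposited table, its partner miR-133a-5p, miR-133b-3p and miR-208a-5p. miR-133b-3p had 1093, 441 and 1393 normalized reads in the M libraries and 1909, 1619 and 1956 in the CK libraries, all M below all CK, with a log2 fold of -0.91 and of -0.56 without M library 2. miR-1-3p, the most abundant on the list, and miR-206-3p were the members higher in M, so the list did not lean one way. Its share of all normalized reads was 6.59% in M and 7.48% in CK; miR-1b, with 344531 normalized reads in M and 365838 in CK, is not on the list. Without M library 2 the median over its 7 recovered members was -0.46. In that library the muscle list stood 2.05 below its CK mean and the fibroblast list 2.07 above it, as medians on the log2 scale, against -0.34 and -0.26 for muscle and 0.68 and 0.36 for fibroblast in M libraries 1 and 3. What sets that library apart was not tested.

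The other lists were smaller or mixed. Endothelial miRNAs were 4 higher and 1 lower, with miR-221-5p the called member and miR-126a-3p the most abundant. Their median over 4 recovered members was 1.08, and 0.44 without M library 2. These members were miR-222-3p, miR-126a-5p and both arms of miR-221, so that median rests mostly on miR-221 and miR-222. Outside it, miR-126a-3p had a log2 fold of 0.30, and its partner miR-126a-5p had -0.27. Lymphocyte miRNAs were 2 higher and 6 lower with a median of -0.28, and miR-150-5p had 6044, 3364 and 6993 normalized reads in the M libraries and 12639, 8771 and 9788 in the CK libraries, all M lower. miR-181a-5p was the most abundant of that list. The smooth muscle list, led by miR-143-3p, was 1 higher and 3 lower, and the red cell list 2 higher and 2 lower, with its most abundant member miR-486 at 37987 in M and 81592 in CK in the authors' deposited table (unadjusted p = 0.0313).

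Among markers of other organs, the neural list was 3 higher and 3 lower. Its most abundant member was miR-128-3p, and miR-7a-5p had 4488, 3315 and 3780 normalized reads in the M libraries and 1946, 1980 and 2147 in the CK libraries. The liver list, led by miR-192-5p, was 2 higher and 1 lower, with miR-122-5p at 197, 16.6 and 85.6 in the M libraries and 19.95, 10.1 and 20.6 in the CK libraries, overlapping between groups. The epithelial list, led by miR-200c-3p, was 2 higher and 1 lower at sums of 288 in M and 357 in CK.

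**Figure D5:**
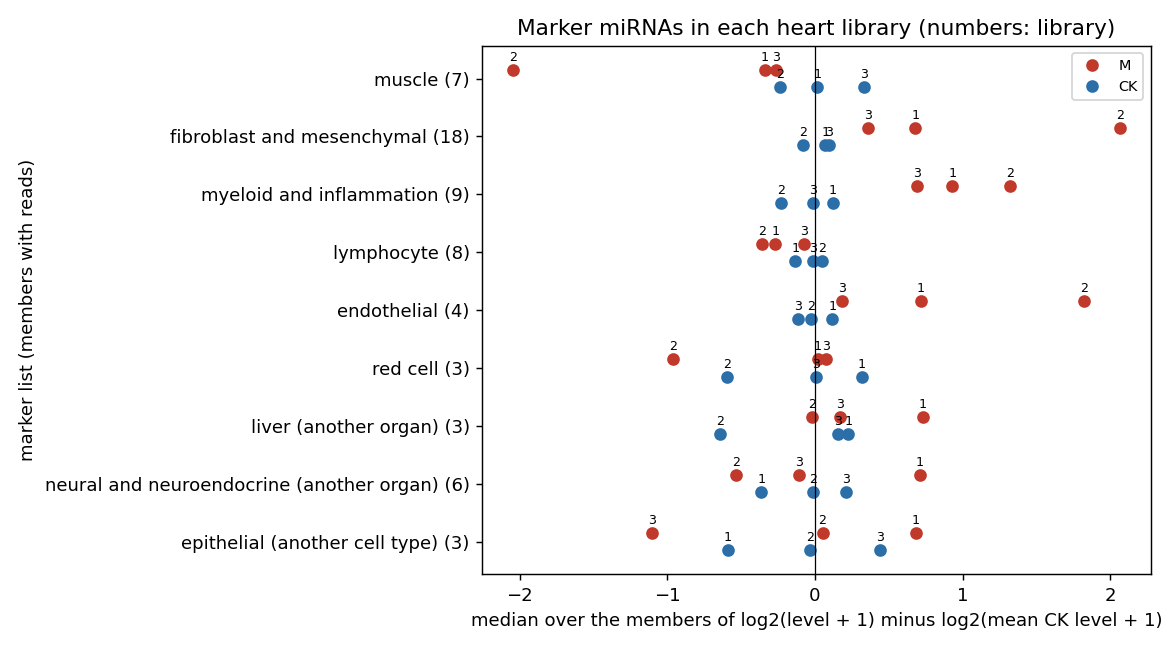
Median over the members of each marker list of the log2 level against the CK mean, in each M library (red, upper) and each CK library (blue, lower), numbered by library; the smooth muscle list has 2 recovered members and is not drawn. M library 2 lies at -2.05 for muscle and 2.07 for fibroblast and mesenchymal miRNAs, and the myeloid list lies above the CK libraries in all M libraries.

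In the exosome table, for which the serum samples remain, none of the 4 called miRNAs passed the threshold. In the authors' deposited table for exosomes miR-146b-5p averaged 4051 in M and 3217 in CK and miR-483-3p 8.63 in M and 25.2 in CK, and miR-221-5p and miR-6321 were listed at 0 in M, against 11.3 and 10.97 in CK. Over the 249 miRNAs at a heart mean of 10 or more with finite folds in both tables, 122 had the same sign, and the log2 folds had a Pearson r of -0.07 and a Spearman rho of -0.08 across miRNAs, given as a description because the tables were normalized separately.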

How the data were processed

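Per the labels' protocols, Trizol was used to extract RNA and a NEBNext kit to make small RNA libraries. The build mRatBN7.2, DESeq 1.30.0 and Bowtie2 2.2.6 are named per the submitters' processing notes; the sources used here do not give the trimming or the treatment of reads shared by several miRNAs. Per the file headers, the authors deposited for each miRNA a mean normalized signal (counts divided by size factors) over all libraries, for M and for CK, the ratio (fold) of M over CK, its log2, a p-value and an adjusted p-value. The RefSeq table at hand is of GRCr8, so it served for sequences and neighbourhood and no coordinates are printed.

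Reads per library were solved from the 15-digit means as whole numbers times 3 steps per group, keeping unique solutions: 96.5% of the 574 M means and 94.8% of the CK means, with every mean below 37987 in M and below 23079 in CK among them. They hold 18.9% of the normalized total in M and 12.7% in CK. On simulated means 551 of 551 solutions in M and 544 of 544 in CK were correct. Counts of called miRNAs use the authors' p-values (Benjamini-Hochberg over all rows, threshold 0.05); limma 3.58.1 with trend on log2(level + 1) is the alternative. On simulated levels limma called 36 of 40 miRNAs shifted by 2 on the log2 scale, 5 of 40 shifted by 1, and 0 unshifted. For 78 simulated arm ratios it called 12 of 15 shifted by 2. The simulated reads were drawn independently for each miRNA with a fixed spread. No simulated library stood apart as M library 2 does, so these shares may not hold for the heart libraries. No interval covers more than the spread of 3 libraries.

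Named were miRNAs past the adjusted threshold, up to 8 per direction by fold at an unadjusted p below 0.05, the 10 most abundant of each group, the extreme families, arms, clusters and rank changes, and list members at an unadjusted p below 0.05. miR-146a-5p, miR-206-3p, miR-122-5p and partner arms outside that rule were named after their values were seen. Members, lists and tests were chosen with earlier results of these data known.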

Additional observations from a re-analysis of the deposited data

How the results depend on the processing

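At an unadjusted p below 0.05 the count of changed miRNAs was 44, against 4 past the adjusted threshold; adjusting over the 350 miRNAs of mean 10 or more, or raising the threshold to 0.1, left 4, and limma on recovered reads gave 3. Leaving out 1 library at a time, limma called 1 to 13. The log2 folds ran from 1.41 to 1.77 for miR-146b-5p, from 1.38 to 1.71 for miR-221-5p and from -2.56 to -1.64 for miR-483-3p. Of the seed families 5 of 11 were higher, 6 by the median of the members, 6 of 13 with no filter and 5 of 10 at a mean of 100 or more. Scaling to equal sums left 4 of 11 higher, with the log2 sum of miR-1/206 at -0.10 and of miR-17/20/93 at 0.03. The share of hairpins nearer 5p in M ran from 60.6% (both arms at a mean of 100 or more) to 69.2%, and 0 passed in limma under any of the 8 alternatives. Groups past 1.5-fold among neighbours were 4, 4 with gaps of 50 kb and 3 by medians. No paired analysis was possible because the table's group means carry no replicate number of the labelled samples. The most abundant miRNAs rest on the authors' means alone, and miRNAs near the floor of 10 rest on few reads in M library 1, the shallowest. Leaving M library 2 out of the list and neighbour values, leaving each library out of the arm changes, and counting identical sequences once, were chosen after seeing the data.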
